A study of Mus musculus with 7 samples.

Results

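The Hox genes encode homeodomain transcription factors that lie in 4 clusters, A to D, and fall into 13 paralogue groups by their order within a cluster. Genes at one end of each cluster, with low group numbers, act towards the head of the embryo, and genes at the other end, with high group numbers, act towards the tail and the tips of the limbs. Cells of mesenchymal tissues such as fibroblasts keep the Hox combination of the place in the body they came from through many divisions in culture, and Polycomb and Trithorax protein complexes hold silent and active Hox genes in their states. The adult liver arises from the foregut and is known for little Hox expression. Every array gene named Hoxa, Hoxb, Hoxc or Hoxd followed by a number was taken, which gave 38 genes on 50 probes among 27583 genes and unnamed probes: 11 of cluster A, 10 of cluster B, 8 of cluster C and 9 of cluster D. No gene was chosen by its level. Hoxc11 was not analysed here.

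The study set induced hepatocyte-like cells (iHep) beside the embryonic fibroblasts they were derived from and beside hepatocytes of the adult liver, all from C57BL/6 mice, on 1-colour Agilent whole-genome arrays with 1 array per sample. There were 3 iHep arrays, 1 for each of the types labelled 4α1, 4α2 and 4α3, and 1 array of hepatocytes from adult livers, whose age is given no further. There were 3 arrays of mouse embryonic fibroblasts (MEF 1, MEF 2 and MEF 3) prepared individually from embryos of 13.5 days post coitum. From what is known of the study, and not from the labels, iHep cells were made by forced expression of Hnf4a with 1 Foxa factor. The labels do not say which MEF preparation each type came from, or whether the hepatocytes of several animals were pooled. The MEF 2 and MEF 3 arrays lay within the noise of repeated spots on a single array, so they were averaged and counted as 1 sample. MEF had n = 2, iHep n = 3 and hepatocytes n = 1, and the spread of the iHep group is a spread between types.

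A level below is the log2 signal of a probe minus the 75th percentile of its array, so 0 is that percentile. Levels are given for types 4α1, 4α2 and 4α3 in that order, for the hepatocyte array, and for MEF 1, MEF 2 and MEF 3 in that order. Where a gene has 2 probes the brighter stands for it, and a level of 1 probe is never set against that of another. A gene counted as detected where the scanner software put a probe well above background. Across all genes this held for 60.2% to 62.4% on the iHep arrays, 62.7% on the hepatocyte array and 59.5% to 67.4% on the MEF arrays. The MEF 2 and MEF 3 arrays were brighter, with a 75th percentile of 1583 and 1502 signal units against 624 to 902 on the other 5 arrays. The lowest detected level was -6.81 and -6.59 there, against -6.16 to -5.73 on the others. Hepatocyte markers went with the labels: 7 to 8 of 9 were detected on the iHep arrays, 9 on the hepatocyte array and 1 on each MEF array. Markers of intestinal epithelium, which the labels do not name, were high in iHep as well. Of 6, 4 were detected on each iHep array, 4 on the hepatocyte array and 1 on each MEF array. Their summed linear level was 162 to 689 in iHep, 3.05 in hepatocytes and 0.359 to 1.70 in MEF. The MEF arrays also carried macrophage markers, whose summed linear level was 0.388 to 1.79 in iHep, 9.41 in hepatocytes and 69.4 to 109 in MEF. On the iHep arrays 3 to 4 of 8 were detected, against 8 of 8 in hepatocytes and in MEF, and in iHep Adgre1, Ptprc, C1qa and C1qc were not detected. Of 5 endothelial markers, none was detected in iHep, 5 in hepatocytes and 3 in MEF, with summed levels of 0.0308 to 0.035 in iHep, 4.79 in hepatocytes and 1.80 to 2.92 in MEF. Muscle markers had summed levels of 2.93 to 10.8 in iHep, 0.206 in hepatocytes and 50.5 to 90.1 in MEF. For neural markers these were 0.371 to 0.631, 0.359 and 1.47 to 3.64. The part of these other cells in the Hox differences was not tested, and in such bulk RNA fewer cells of a type and less RNA per cell cannot be told apart.

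Most Hox genes detected in fibroblasts were also detected in iHep, and fewer were in hepatocytes. Of the 38 genes, 30, 32 and 29 were detected on the iHep arrays, 12 on the hepatocyte array and 32, 36 and 36 on the MEF arrays. The mean number was 30.3 ± 1.53 in iHep (SD, n = 3) and 34.0 ± 2.83 in MEF (SD, n = 2). An exact permutation test did not separate them (two-sided p = 0.4, where 10 arrangements allow no less than 0.2). On the slide that held MEF 1 and all iHep arrays the mean difference was -1.67 genes. A looser flag of the software, a signal positive and significant against background, gave 32 to 35 genes in iHep, 23 in hepatocytes and 34 to 37 in MEF.

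The detected genes were not spread evenly over the paralogue groups. All 15 genes of groups 4 to 8 were detected on every iHep and every MEF array, and 9 of them in hepatocytes. Detection on all iHep and MEF arrays held for 26 of the 32 tested Hox genes (81.2%), where it held for 77.7% of all tested genes, and detection in hepatocytes for 12 (37.5%), where it held for 89.8%. Of the 15 genes of groups 9 to 13, 11, 12 and 9 were detected in iHep, 1 in hepatocytes (Hoxc10) and 12, 15 and 15 in MEF. Within that posterior range of cluster D, 3, 4 and 1 of 5 genes were detected in types 4α1, 4α2 and 4α3, 0 in hepatocytes and 5 on each MEF array. None of the 9 cluster D genes was detected in hepatocytes. Among the 32 Hox genes that passed the filter on dim probes, 14 were detected on all iHep and MEF arrays and not in hepatocytes, or 43.8%, where 5.19% of all tested genes were. Hoxb1, a hindbrain gene, and Hoxd1, a gene of sensory neurons, were detected on no array.

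**Figure D1:**
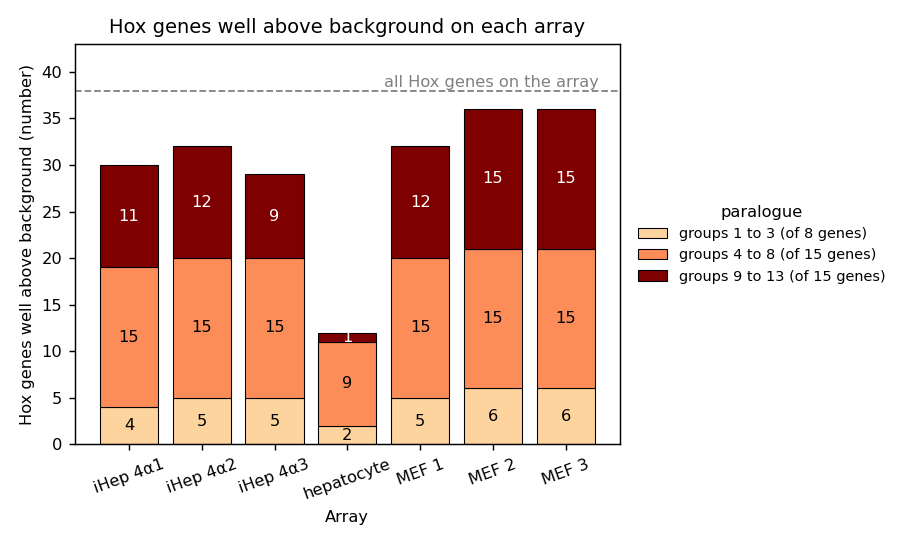
Number of Hox genes well above background on each array (y axis, of 38), stacked by paralogue group, with the iHep arrays on the left, the hepatocyte array next and the MEF arrays on the right. The segment for groups 4 to 8 holds 15 genes on all iHep and MEF arrays, and the segment for groups 9 to 13 holds 9 to 12 genes in iHep, 1 in hepatocytes and 12 to 15 in MEF.

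In iHep against MEF, 4 of the 32 tested Hox genes passed the test, and all 4 fell: Hoxa5, Hoxb3, Hoxb8 and Hoxd13. That is 12.5%, where 13.2% of all 19133 tested genes fell, so the count of falling Hox genes stood near the background. All 32 were detected on every MEF array. Hoxa2, Hoxa13 and Hoxd10 to Hoxd13 were not detected on all iHep arrays or in hepatocytes. These genes thus entered the test through MEF, the group in which they were high, so the passing of Hoxd13 and the direction of their changes are a description. No Hox gene rose by limma, at an unadjusted p under 0.05 either (0 genes), or under any of 15 alternatives, where 10.1% of all tested genes rose. A ± after a log2 change is its standard error, throughout. The median Hox change was -0.90 on the log2 scale against -0.04 over all genes, with 27 of 32 changes below 0. Within the slide that held MEF 1 and all iHep arrays, without MEF 2 and MEF 3, it was -0.50. Without the filter on dim probes it was -0.70 over all 38 Hox genes, against 0.09 over all genes. Of the 32, 17 lay within 1 log2 unit of MEF, where 69.2% of all genes did. Every iHep array lay below every MEF array for 14 Hox genes (43.8%, background 31.3%). With undetected signals raised to the lowest detected level of their array, a setting chosen after the data were seen, that held for 13, without Hoxd12 (40.6%, background 30.7%). Both counts hold Hoxa2, Hoxd10, Hoxd11 and Hoxd13, which entered the test through MEF, so both are a description. By the signals as measured, every iHep array lay above every MEF array for Hoxc4 alone (background 24.9%). By cluster the median change was -0.59 in A, -1.33 in B, -0.52 in C and -2.09 in D, and all 8 tested cluster B genes were below 0.

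**Figure D2:**
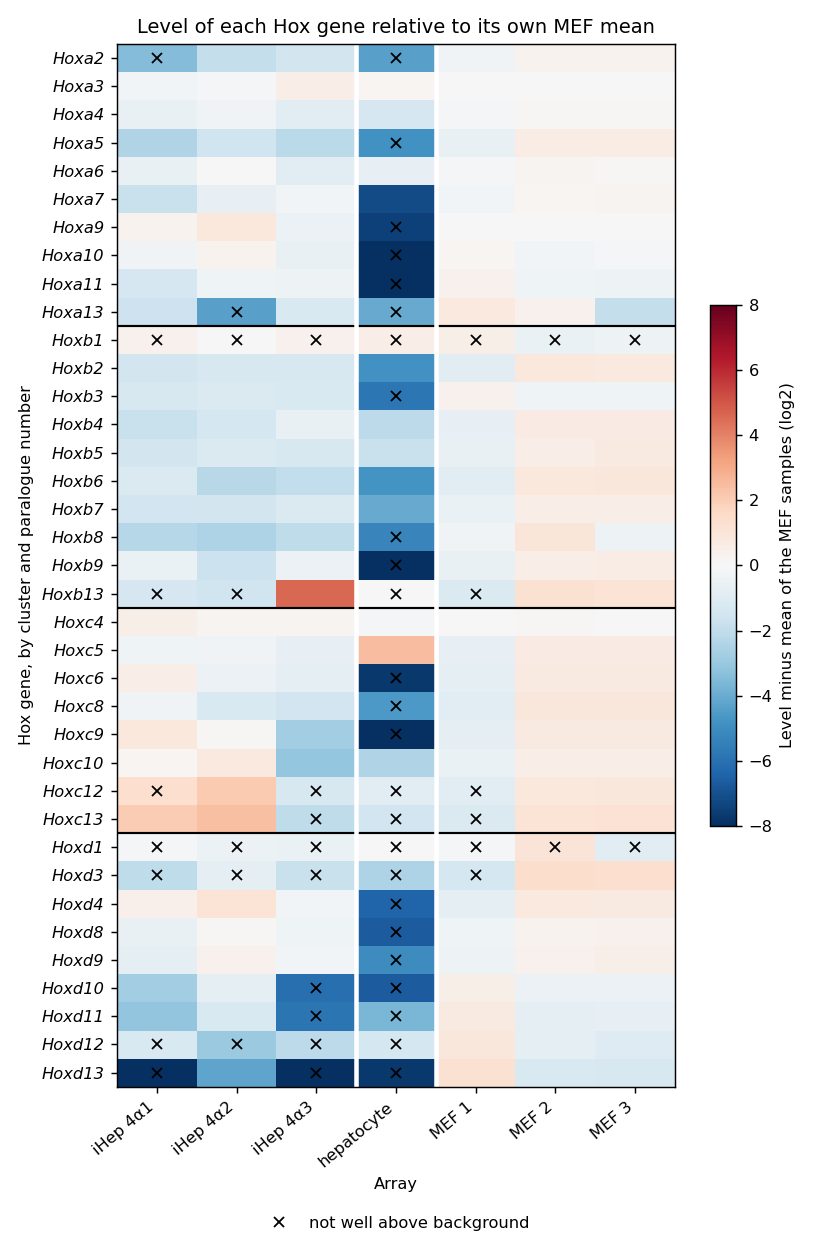
Level of 37 of the 38 Hox genes (rows, by cluster and paralogue number) on each array (columns) minus that gene's own MEF mean, in log2 units, with colours held at -8 and 8 beyond those values; a cross marks a gene not well above background. The iHep columns are pale over most of clusters A, B and C. At the foot of cluster D, Hoxd13 is dark in types 4α1 and 4α3, and Hoxd10 and Hoxd11 are dark in type 4α3. Type 4α2 is pale at Hoxd10 and Hoxd11. The hepatocyte column is dark from Hoxa7 to Hoxa11, at Hoxb9, at Hoxc6, at Hoxc9 and through most of cluster D.

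In hepatocytes against MEF, 22 of 32 Hox genes fell (68.8%, background 25.1%) and 1 rose, Hoxc5 (3.12%, background 28.4%), with a median change of -4.81 against 0.14 over all genes. In iHep against hepatocytes, 18 were higher (56.2%, background 22.1%) and 1 was lower, Hoxc5 again (3.12%, background 27.1%), with a median difference of 3.04 against -0.17. Of the 32 tested genes, 20 were detected on all MEF arrays and not in hepatocytes (62.5%, background 8.82%), so they entered the test through the groups in which they were high, and the hepatocyte counts are a description. These 3 comparisons share their arrays, so they do not support one another, and the hepatocyte array lay alone on its slide, so slide and cell type cannot be told apart there. By limma with Benjamini-Hochberg adjustment, as for every adjusted p here, the spread of the single hepatocyte array was borrowed from the iHep and MEF groups. Calls held under every alternative in which the gene was tested, 12 to 14 per gene, for 1 of 4 genes in iHep against MEF (Hoxb8), for 16 of 23 in hepatocytes against MEF and for 12 of 19 in iHep against hepatocytes. In iHep against MEF, the alternatives within the slide of MEF 1 and without MEF 2 and MEF 3 amount to the same fit, though each is counted as an alternative. Normexp background correction with an offset of 50, which compresses low signals, brought the median Hox change to -0.59, -1.71 and 0.80 in the 3 comparisons.

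**Figure D3:**
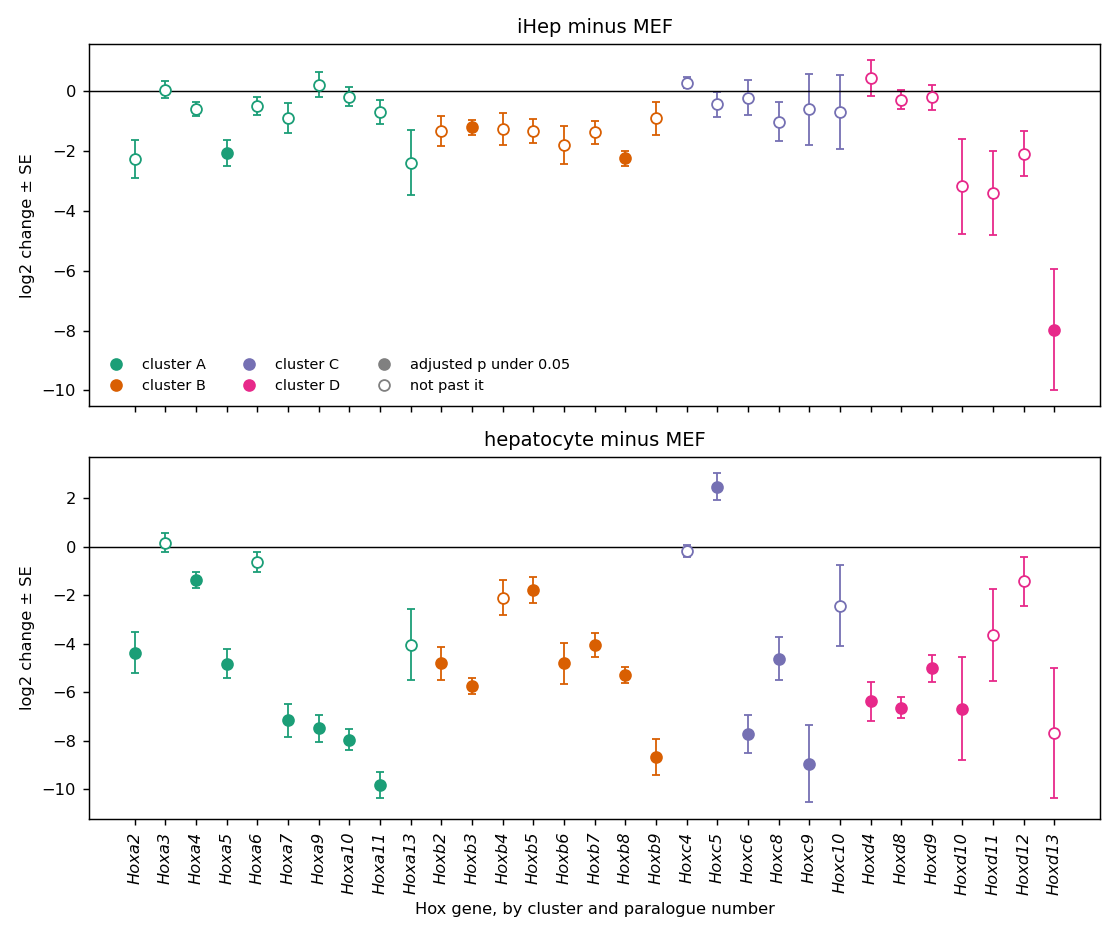
Fitted log2 change of 31 of the 32 tested Hox genes, iHep minus MEF above and hepatocyte minus MEF below, with bars of 1 standard error and filled points where the adjusted p was under 0.05. In the upper panel only Hoxa5, Hoxb3, Hoxb8 and Hoxd13 are filled and the points of Hoxd13, Hoxd11 and Hoxd10 lie lowest. In the lower panel 22 points are filled and Hoxc5 is the one filled point above 0.

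Among the anterior genes, of groups 1 to 3, Hoxa2, which gives the second pharyngeal arch its identity, had -6.17, -4.60 and -4.21 in iHep, -7.09 in hepatocytes and -2.97, -2.46 and -2.47 in MEF. It was detected in iHep types 4α2 and 4α3 and on all MEF arrays. All iHep arrays lay below all MEF arrays, but the difference did not pass the test (log2 change -2.28 ± 0.64, adjusted p = 0.0621). Hoxb2, its relative in cluster B, had -1.11, -0.89 and -0.91 in iHep, -4.45 in hepatocytes and -0.45, 1.21 and 1.17 in MEF, so MEF 1 lay closer to iHep than to the other MEF preparations. The other Hoxb2 probe had -7.97, -4.57 and -6.02 in iHep, -5.95 in hepatocytes and -7.70, -4.78 and -4.46 in MEF. It was detected in type 4α2, MEF 2 and MEF 3 alone. With the probes averaged, Hoxb2 lost its calls in hepatocytes against MEF and in iHep against hepatocytes (adjusted p = 0.152 and 0.273).

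Hoxb3, a gene of the hindbrain, was 1 of the 4 genes that fell in iHep. Its levels were -1.66, -1.57 and -1.60 in iHep, -6.16 (not detected) in hepatocytes and -0.07, -0.74 and -0.73 in MEF. The iHep types agreed within 0.04 (SD, n = 3) and lay below all MEF arrays, 2.31-fold lower (log2 change -1.21 ± 0.25, adjusted p = 0.0292). The other Hoxb3 probe had -3.09, -2.86 and -2.10 in iHep, -5.82 in hepatocytes and -1.88, -0.41 and -0.46 in MEF. The call was lost without MEF 1 and without any 1 of the iHep types (highest adjusted p 0.111), and it held within the slide of MEF 1. In hepatocytes Hoxb3 was at least 40.9-fold below MEF (log2 change -5.76 ± 0.34, adjusted p = 0.000388). Hoxa3, which is needed for the thymus and parathyroid, had -2.43, -2.38 and -1.70 in iHep, -2.05 in hepatocytes and -2.22, -2.22 and -2.21 in MEF on its brighter probe, a flat profile. Its other probe did not share it and had -5.63, -4.27 and -5.06 in iHep, -7.78 (not detected) in hepatocytes and -5.10, -3.92 and -3.99 in MEF. With the 2 probes averaged, Hoxa3 fell in hepatocytes against MEF by 1.54 on the log2 scale (adjusted p = 0.0338). Hoxd3 was detected only in MEF 2 and MEF 3, at -3.89 and -3.99, and was not tested.

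Of the central genes, groups 4 to 8, Hoxa5, which acts in the lung and the upper trunk, fell in iHep. It had -3.48, -2.71 and -3.27 in iHep, -5.91 (not detected) in hepatocytes and -1.68, -0.52 and -0.49 in MEF. All iHep arrays lay below all MEF arrays, 4.18-fold lower on average (log2 change -2.06 ± 0.44, adjusted p = 0.0306). Hepatocytes were at least 25.4-fold below MEF (log2 change -4.82 ± 0.59, adjusted p = 0.00263). The call in iHep was lost within the slide of MEF 1, without MEF 2 and MEF 3, without type 4α1 and without type 4α3 (highest adjusted p 0.117). MEF 1 minus the mean of MEF 2 and MEF 3 was -1.18 at this gene.

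Hoxb8, known in the mouse for a grooming defect when lost, was the Hox gene whose fall in iHep passed the test under all 14 alternatives in which it was tested. Its levels were -5.01, -5.17 and -4.74 in iHep, -8.02 (not detected) in hepatocytes and -2.99, -1.79 and -3.14 in MEF. All iHep arrays lay below all MEF arrays by more than 1 log2 unit, 4.73-fold on average (log2 change -2.24 ± 0.26, adjusted p = 0.00574). Over the alternatives the change ran between -2.50 and -1.06 with adjusted p of 0.00619 to 0.0402. MEF 2 and MEF 3, close to each other at most Hox genes, lay apart on this probe, and the other Hoxb8 probe was detected on no array. In iHep against hepatocytes the difference was at least 1.73-fold (log2 change 3.05 ± 0.32, adjusted p = 0.00194), and it did not pass with normexp correction (adjusted p = 0.427).

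The other central genes of cluster B were lower on average in iHep without passing the test. Hoxb4, used in blood stem cell expansion, had -5.11, -4.72 and -3.93 in iHep, -5.43 in hepatocytes and -3.97, -2.68 and -2.68 in MEF. Hoxb5, which acts in the nerve cells of the gut, had -3.51, -3.21 and -3.31 in iHep, -3.81 in hepatocytes and -2.64, -1.47 and -1.33 in MEF, log2 change -1.32 ± 0.40, adjusted p = 0.076 for iHep against MEF. Hoxb6, a thoracic gene, had -0.87, -1.96 and -1.70 in iHep, -4.53 in hepatocytes and -0.62, 1.15 and 1.21 in MEF. In all 3 of these genes MEF 1 stood over 1 log2 unit below MEF 2 and MEF 3, and in Hoxb5 and Hoxb6 no iHep array reached a MEF array. Hoxb7 had -1.08, -1.06 and -0.70 in iHep, -3.61 in hepatocytes and -0.11, 0.97 and 0.98 in MEF (log2 change -1.38 ± 0.37, adjusted p = 0.0572 for iHep against MEF). It fell in hepatocytes (log2 change -4.04 ± 0.50, adjusted p = 0.00273). The other probe of Hoxb6 was flat, at -1.75, -1.89 and -1.49 in iHep, -1.43 in hepatocytes and -1.42, -1.72 and -1.74 in MEF. The fall of Hoxb6 in hepatocytes (log2 change -4.81 ± 0.85, adjusted p = 0.00815) thus rests on 1 of its 2 probes, and the mean of both also passed.

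In cluster A, Hoxa7, a gene of the trunk, fell in hepatocytes and did not pass the test in iHep. It had 1.13, 2.26 and 2.67 in iHep, -4.26 in hepatocytes, where it was still detected, and 2.72, 3.09 and 3.13 in MEF. No iHep array reached a MEF array, but the change did not pass (log2 change -0.89 ± 0.50, adjusted p = 0.257). In hepatocytes the gene was 144-fold below MEF (log2 change -7.17 ± 0.67, adjusted p = 0.0012). Hoxa4 had -3.82, -3.51 and -4.08 in iHep, -4.57 in hepatocytes and -3.31, -3.11 and -3.10 in MEF. Hoxa6 had -5.19, -4.63 and -5.41 in iHep, -5.21 in hepatocytes and -4.75, -4.37 and -4.48 in MEF. These are small differences: Hoxa6 passed in no comparison, and the fall of Hoxa4 in hepatocytes (log2 change -1.36 ± 0.32, adjusted p = 0.0196) was lost with normexp correction, with its probes averaged, without MEF 1 and without MEF 2 and MEF 3. The other Hoxa4 probe was detected in MEF 2 and MEF 3 alone.

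Cluster C held the 1 Hox gene that was higher in hepatocytes than in MEF. Hoxc4, a gene of the neck, had -1.34, -1.60 and -1.61 in iHep, -1.98 in hepatocytes and -1.84, -1.72 and -1.81 in MEF, and it passed in no comparison. Hoxc5, its neighbour, had -2.92, -2.88 and -3.26 in iHep, -0.10 in hepatocytes and -3.22, -1.95 and -1.94 in MEF. Hepatocytes stood above all other arrays, 5.59-fold above MEF (log2 change 2.48 ± 0.56, adjusted p = 0.0175). The iHep arrays were 7.58-fold below hepatocytes (log2 change -2.92 ± 0.53, adjusted p = 0.00983). Either call held under all 13 alternatives in which it was tested. Both calls rest on 1 probe and 1 hepatocyte array, which no alternative varied. Hoxc6, a thoracic gene 4.94 kb further along the cluster by probe starts, went the other way. It had 1.49, 0.53 and 0.24 in iHep, -6.74 (not detected) in hepatocytes and 0.25, 1.70 and 1.71 in MEF. Hepatocytes were at least 107-fold below MEF (log2 change -7.72 ± 0.79, adjusted p = 0.00154) while the iHep and MEF ranges overlapped. Hoxc8, which acts in the thorax and in motor neurons of the forelimb, had -3.45, -4.37 and -4.69 in iHep, -7.77 (not detected) in hepatocytes and -4.06, -2.25 and -2.25 in MEF.

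In cluster D the levels of the central genes in iHep and in MEF overlapped. Hoxd4 had -1.23, -0.53 and -1.85 in iHep, -8.02 (not detected) in hepatocytes and -2.37, -0.86 and -0.93 in MEF. Hoxd8 had -1.74, -1.01 and -1.50 in iHep, -7.78 (not detected) in hepatocytes and -1.46, -0.83 and -0.80 in MEF. In both genes the iHep and MEF ranges overlapped and iHep lay at least 23.5-fold and 20.2-fold above hepatocytes (log2 change 6.82 ± 0.75, adjusted p = 0.00218 and log2 change 6.36 ± 0.41, adjusted p = 0.000532).

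The posterior genes of cluster A act in the limb and the hind part of the trunk, and Hoxa9, Hoxa10 and Hoxa11 had iHep levels that overlapped those of MEF and lay far above hepatocytes. Hoxa9, a gene of the lower trunk and of blood progenitors, had -0.24, 0.33 and -1.01 in iHep, -8.01 (not detected) in hepatocytes and -0.55, -0.50 and -0.49 in MEF. Hoxa10, a lumbar gene, had 0.10, 0.67 and -0.20 in iHep, -7.59 (not detected) in hepatocytes and 0.53, 0.18 and 0.27 in MEF. Hoxa11, needed for the forearm and the uterus, had 0.66, 1.61 and 1.56 in iHep, -7.86 (not detected) in hepatocytes and 2.35, 1.63 and 1.58 in MEF. In all 3 genes the iHep and MEF ranges overlapped, while iHep lay at least 43.8-fold, 61.8-fold and 131-fold above hepatocytes, each call held under all 12 alternatives in which it was tested. For iHep against MEF none of the 3 passed: Hoxa9 had log2 change 0.21 ± 0.42, adjusted p = 0.745, Hoxa10 had log2 change -0.19 ± 0.32, adjusted p = 0.707 and Hoxa11 had log2 change -0.70 ± 0.41, adjusted p = 0.275. That does not show that the levels were equal. Hoxb9 in cluster B had 0.12, -1.05 and 0.15 in iHep, -8.02 (not detected) in hepatocytes and 0.07, 1.21 and 1.26 in MEF. It lay at least 45.3-fold above hepatocytes in iHep (log2 change 7.77 ± 0.69, adjusted p = 0.00115).

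Hoxa13, at the posterior end of cluster A and needed for the hand and foot and the hindgut, was detected in part of the iHep types. It had -5.51, -8.16 and -5.03 in iHep, where type 4α2 was not detected, -7.87 (not detected) in hepatocytes and -3.04, -3.50 and -5.76 in MEF. As the signal of type 4α2 lay below background, its distance from the other types was not measured. MEF 2 and MEF 3 lay apart on this probe too, and iHep against MEF did not pass (log2 change -2.40 ± 1.08, adjusted p = 0.176).

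The types differed among themselves mostly at the posterior ends of clusters C and D. Here undetected signals were set at the lowest detected level of their array, which shortens the gaps. Levels then spread over more than 2 log2 units across the 3 types for 5 of 32 Hox genes (15.6%, background 6.32%): Hoxc9, Hoxc10, Hoxd10, Hoxd11 and Hoxd13. Type 4α3 lay over 2 log2 units below both other types for Hoxc9, Hoxc10 and Hoxd10 (9.38%, background 1.22%). Type 4α2 lay over 2 above both others for Hoxd10 and Hoxd13 (6.25%, background 0.789%). Type 4α2 lay over 2 below both others for 0 of them (background 0.162%), and type 4α3 over 2 above both others for 0 (background 0.7%). Hoxb13, detected in type 4α3 alone of the types, did not pass the filter and is not in these counts. The 0 for type 4α3 is thus set in part by the filter. With the signals as measured, Hoxa13 joined the first count (18.8%, background 8.42%) and Hoxd11 the count of type 4α3 (12.5%, background 1.75%). The counts of high values were the same 2 for type 4α2 and 0 for type 4α3, against backgrounds of 1.11% and 0.862%. With 1 array per type these are values of single arrays, and no test between types could be run.

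Hoxc9, which sets the boundary of thoracic motor neurons, had 1.78, 1.07 and -1.81 in iHep, -8.02 (not detected) in hepatocytes and 0.23, 1.66 and 1.69 in MEF. Types 4α1 and 4α2 lay within the MEF range or above it, and type 4α3 lay below every MEF array. Hoxc10, a lumbar and hindlimb gene, had -2.26, -1.60 and -5.49 in iHep, -4.84 in hepatocytes and -2.93, -1.89 and -1.88 in MEF, with type 4α3 again lowest. The other Hoxc10 probe had -4.44, -4.11 and -8.32 in iHep, with type 4α3 not detected. It had -7.90 (not detected) in hepatocytes and -5.58, -4.22 and -4.12 in MEF, with MEF 1 not detected. The detection of Hoxc10 in hepatocytes thus rests on 1 of its 2 probes. Further out, Hoxc12 had -5.45, -4.73 and -8.09 in iHep, with type 4α2 alone detected, -7.66 in hepatocytes and -7.70, -5.94 and -5.88 in MEF, of which MEF 2 and MEF 3 were detected. Hoxc13, a gene of hair and nails, had -4.26, -3.89 and -8.28 in iHep, of which types 4α1 and 4α2 were detected, -7.78 in hepatocytes and -7.39, -5.17 and -5.11 in MEF, where MEF 1 was not detected. Type 4α2 stood above every MEF array at Hoxc12, and types 4α1 and 4α2 did at Hoxc13. Hoxc12 and Hoxc13 did not pass the filter and have no test.

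**Figure D4:**
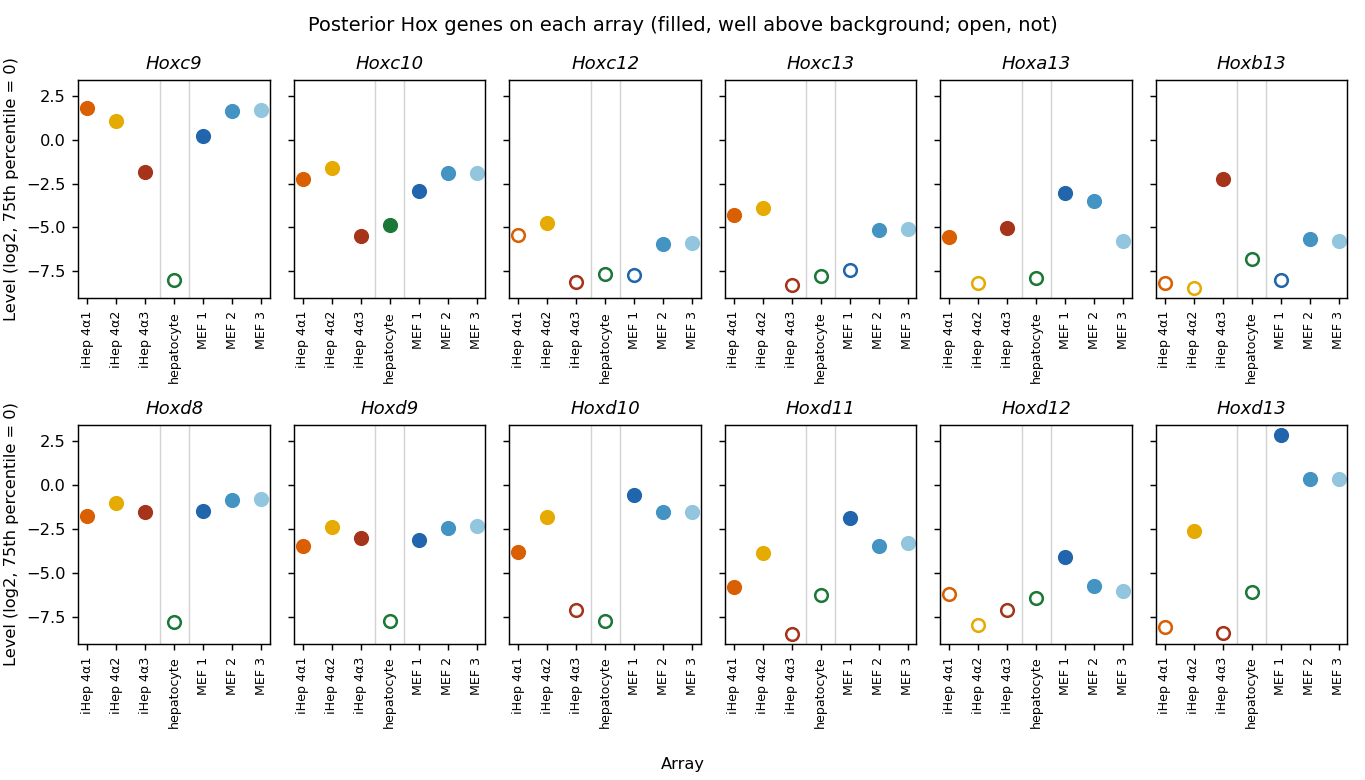
Level of 12 Hox genes, the posterior ones of clusters C and D with Hoxd8, Hoxa13 and Hoxb13, on each array in log2 units relative to the array's 75th percentile, with filled points where the gene was well above background and open points where it was not; each panel holds 1 gene and levels are to be read within a panel. Type 4α3 is the lowest iHep point for Hoxc9, Hoxc10, Hoxc13, Hoxd10 and Hoxd11, is the highest for Hoxa13 and Hoxb13, and lies between the other types for Hoxd8 and Hoxd9; open points have no order among themselves.

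In cluster D, Hoxd9 was detected in type 4α3 and Hoxd10 to Hoxd13 were not, which describes 1 array. Hoxd9, which acts in the limb and the lower back, had -3.49, -2.40 and -2.99 in iHep, -7.75 (not detected) in hepatocytes and -3.13, -2.43 and -2.30 in MEF, and the iHep and MEF ranges overlapped (log2 change -0.21 ± 0.42, adjusted p = 0.746). The iHep arrays lay at least 6.95-fold above hepatocytes (log2 change 4.79 ± 0.53, adjusted p = 0.00217). The other Hoxd9 probe had -3.60, -2.57 and -3.58 in iHep and -3.55, -2.97 and -3.00 in MEF. Hoxd10, whose probe starts 5.40 kb away, had -3.83, -1.79 and -7.12 in iHep, where type 4α3 was not detected, -7.75 (not detected) in hepatocytes and -0.59, -1.55 and -1.54 in MEF. All iHep arrays lay below all MEF arrays, but type 4α2 by less than 1 log2 unit, and the difference did not pass (log2 change -3.18 ± 1.58, adjusted p = 0.211). Hoxd11, which works with Hoxa11 in the forearm, had -5.81, -3.84 and -8.47 in iHep, where type 4α3 was not detected, -6.26 (not detected) in hepatocytes and -1.89, -3.45 and -3.32 in MEF (log2 change -3.41 ± 1.42, adjusted p = 0.149 for iHep against MEF). Hoxd12, a gene of the digits, had signals of -6.20, -7.98 and -7.09 in iHep, -6.43 in hepatocytes and -4.10, -5.76 and -6.05 in MEF. It was detected on all MEF arrays and no other, at least 2.07-fold lower in iHep (log2 change -2.09 ± 0.75, adjusted p = 0.11).

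Hoxd13, the last gene of the cluster and a master gene of digit formation, showed the largest fitted fall of any Hox gene in iHep. It had -8.08, -2.62 and -8.40 in iHep, where type 4α2 alone was detected, -6.09 (not detected) in hepatocytes and 2.85, 0.38 and 0.33 in MEF. All iHep arrays lay below all MEF arrays, type 4α2 included, and the fitted change was 251-fold (log2 change -7.97 ± 2.01, adjusted p = 0.0474), a value set in part by 2 arrays below background. Hoxd13 entered the test through MEF, the group in which it was high, so its passing is a description. The other Hoxd13 probe had -7.81, -6.05 and -8.17 in iHep, none detected, -7.71 (not detected) in hepatocytes and -0.55, -2.82 and -3.03 in MEF. The call was lost under 8 of 14 alternatives, among them within the slide of MEF 1, without MEF 1, without MEF 2 and MEF 3, without type 4α1, without type 4α3 and in the authors' deposited values (highest adjusted p 0.217). In hepatocytes against MEF the difference was at least 164-fold but did not pass (log2 change -7.69 ± 2.70, adjusted p = 0.0628).

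The Hoxd13, Hoxd10 and Hoxd9 probes lie on chromosome 2 of build mm8 at chr2:74472030-74472089, chr2:74495062-74495121 and chr2:74500458-74500517 per the scanner files, and where in the transcripts they lie was not analysed here. Promoter windows of 300 bases, 250 before and 50 after the start of the gene on the plus strand, were taken from RefSeq on build GRCm38.p6 for these 3 genes. They are shown because Hoxd9 was detected in all iHep types, Hoxd10 in 2 and Hoxd13 in 1. The capitals mark CpG dinucleotides, of which the windows hold 37, 22 and 20. The windows are chr2:74667975-74668274, chr2:74691641-74691940 and chr2:74697513-74697812, in that order.
Hoxd13: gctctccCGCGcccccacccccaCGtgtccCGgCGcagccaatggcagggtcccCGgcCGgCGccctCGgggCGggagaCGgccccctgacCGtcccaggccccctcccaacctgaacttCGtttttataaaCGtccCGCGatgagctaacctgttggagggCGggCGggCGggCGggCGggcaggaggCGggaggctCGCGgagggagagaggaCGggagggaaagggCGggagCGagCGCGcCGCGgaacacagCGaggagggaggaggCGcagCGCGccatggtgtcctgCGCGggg
Hoxd10: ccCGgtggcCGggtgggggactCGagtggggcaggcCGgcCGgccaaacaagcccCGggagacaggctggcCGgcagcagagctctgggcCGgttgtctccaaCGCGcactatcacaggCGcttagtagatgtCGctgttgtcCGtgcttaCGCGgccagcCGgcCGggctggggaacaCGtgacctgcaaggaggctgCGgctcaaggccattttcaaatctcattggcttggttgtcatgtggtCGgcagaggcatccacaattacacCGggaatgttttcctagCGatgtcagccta
Hoxd9: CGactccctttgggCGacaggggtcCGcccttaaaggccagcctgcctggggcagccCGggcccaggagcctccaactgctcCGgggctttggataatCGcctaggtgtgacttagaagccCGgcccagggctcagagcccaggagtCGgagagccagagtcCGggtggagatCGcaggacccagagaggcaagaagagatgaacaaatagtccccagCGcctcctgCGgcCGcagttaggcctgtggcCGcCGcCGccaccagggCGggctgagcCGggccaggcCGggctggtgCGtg
The RefSeq table held 24 windows for 22 of the 38 Hox genes, with a median of 14.5 CpG (4 to 45) against 7 over all 32851 windows. The letters TATAAA, searched on both strands, were in 16.7% of Hox windows and 13.6% of all, and TGATNNAT, a joint site of Hox and Pbx proteins, in 16.7% and 8.85%, with no overlap asked for or removed. Such matches describe these letters in these windows and nothing more.

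Hoxb13, the posterior end of cluster B, a gene of the tail, the prostate and the hindgut, ran against Hoxc9, Hoxc10, Hoxd10 and Hoxd11 in type 4α3. It had -8.17, -8.43 and -2.26 in iHep, where type 4α3 alone was detected, -6.80 (not detected) in hepatocytes and -7.98, -5.66 and -5.79 in MEF, of which MEF 2 and MEF 3 were detected. Type 4α3 thus stood above every MEF array at Hoxb13 while it stood below every MEF array at Hoxc9, Hoxc10, Hoxd10 and Hoxd11. Hoxb13 did not pass the filter, which asks for detection on all arrays of a group, and has no test.

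The MEF preparations also differed at the Hox genes. MEF 1 lay over 1 log2 unit below both MEF 2 and MEF 3 for 14 of 32 Hox genes (43.8%, background 4.66%) and over 1 above both for 3 (9.38%, background 3.41%). No test was possible, since MEF 2 and MEF 3 count as 1 sample. The 3 higher genes were Hoxd11, Hoxd12 and Hoxd13, by 1.49, 1.81 and 2.49 over the mean of MEF 2 and MEF 3, and Hoxd10 was 0.96 and Hoxa13 1.59 above that mean. The lower genes were 6 of the 8 tested in cluster B (Hoxb2, Hoxb4, Hoxb5, Hoxb6, Hoxb7 and Hoxb9) and 5 of 6 in cluster C, with Hoxa5 and Hoxd4 among the rest. MEF 1 shared its slide with the iHep arrays and not with MEF 2 and MEF 3, so slide and preparation cannot be told apart here.

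**Figure D5:**
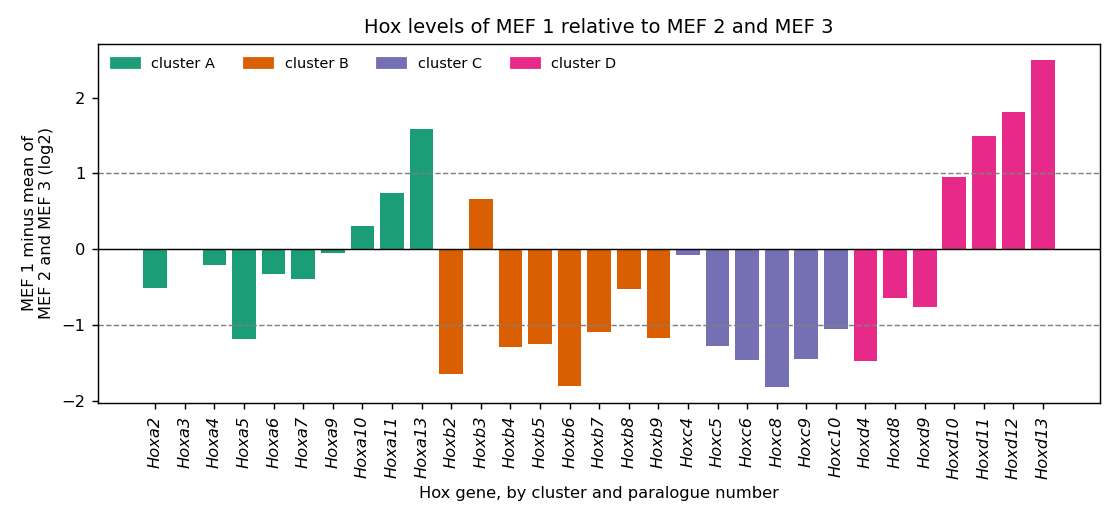
Level of 31 of the 32 tested Hox genes in MEF 1 minus its mean in MEF 2 and MEF 3 (y axis, log2), by cluster and paralogue number, with dashed lines at -1 and 1. Bars of Hoxd10 to Hoxd13 and Hoxa10 to Hoxa13 point up, and bars of clusters B and C point down except Hoxb3. Hoxb3 is drawn by its brighter probe, and its other probe went the other way, at -1.88 in MEF 1 and -0.41 and -0.46 in MEF 2 and MEF 3.

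The partners and neighbours of the Hox genes were read from lists chosen with earlier results of these data known. Of 9 genes of the TALE homeobox class, whose proteins bind DNA together with Hox proteins, 2 fell in iHep against MEF (22.2%) and 6 in hepatocytes against MEF (66.7%), and none rose. Of all tested genes 13.2% fell and 10.1% rose in iHep, and 25.1% fell and 28.4% rose in hepatocytes, the shares against which the counts of this and the next lists stand. The count of TALE genes that rose was 0 by limma and 0 in iHep at an unadjusted p under 0.05. Meis1 had -2.81, -2.53 and -2.46 in iHep, -4.03 in hepatocytes and -1.18, -0.49 and -0.51 in MEF, log2 change -1.76 ± 0.28, adjusted p = 0.0133 for iHep against MEF. No iHep array reached a MEF array there, and hepatocytes were lower still. Meis2 had 1.56, 0.71 and 3.12 in iHep, -0.29 in hepatocytes and 2.41, 3.19 and 3.19 in MEF and did not pass.

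The Cdx and ParaHox genes are sister genes of the Hox clusters, and among them the Cdx genes act upstream of central and posterior Hox genes and in the gut. Of this list Cdx2 and Pdx1 rose in iHep. Cdx2, the gene of intestinal identity, had 3.24, 2.31 and 3.59 in iHep, -6.61 (not detected) in hepatocytes and -8.06, -9.08 and -8.66 (not detected) in MEF. It was at least 614-fold higher in iHep than in MEF. Pdx1, the gene of pancreas and duodenum, had -2.16, -2.61 and -0.48 in iHep, -5.92 (not detected) in hepatocytes and -7.65, -7.59 and -7.94 (not detected) in MEF. That is at least 22.2-fold higher in iHep. Both genes entered the test through iHep, the group in which they were high, so their passing is a description. Cdx1 and Cdx4 were detected on no array.

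Of 30 tested genes of the Polycomb complexes, which keep Hox genes silent, 3 rose (10%) and 2 fell (6.67%) in iHep against MEF, shares no higher than those of all genes. Cbx7, a reader of methylated histone H3, had -1.17, -0.97 and -1.82 in iHep, 0.33 in hepatocytes and -3.46, -3.31 and -3.37 in MEF, log2 change 2.08 ± 0.31, adjusted p = 0.0111. Pcgf5 and Pcgf6 rose less (log2 change 1.06 ± 0.23, adjusted p = 0.0335 and log2 change 0.88 ± 0.19, adjusted p = 0.0309). Phc1 and Rbbp4 fell (log2 change -1.58 ± 0.18, adjusted p = 0.00557 and log2 change -0.77 ± 0.17, adjusted p = 0.0355). The catalytic subunit Ezh2 had -0.12, 0.27 and 0.36 in iHep, -1.30 in hepatocytes and -0.19, 0.04 and 0.07 in MEF. Bmi1 had 0.75, 0.82 and 0.84 in iHep, 0.23 in hepatocytes and 0.67, 0.50 and 0.48 in MEF. Neither passed the test in iHep. Of 13 genes of Trithorax complexes and H3K27 demethylases, none passed in iHep against MEF by limma, and 1 was lower and 0 higher at an unadjusted p under 0.05.

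Retinoic acid is a natural inducer of anterior Hox genes, and of 16 tested genes of its synthesis, breakdown and reception 3 rose and 3 fell in iHep against MEF (18.8% each). Over all tested genes 10.1% rose and 13.2% fell. The synthesis enzymes Aldh1a1 and Aldh1a3 rose (log2 change 5.78 ± 0.62, adjusted p = 0.00503 and log2 change 6.05 ± 0.83, adjusted p = 0.0093). The receptor Rarg fell (log2 change -1.41 ± 0.19, adjusted p = 0.00944), and the carrier Crabp2 and the receptor Rxrg, detected on no iHep array, were at least 23.2-fold and 2.31-fold lower. Crabp2 entered the test through MEF, the group in which it was high, so its passing is a description. Rxrg entered through the hepatocyte array. Of 14 tested genes at the flanks of the clusters, Lnpk beside cluster D and Skap1 beside cluster B fell in iHep (14.3%, near the share of all genes). Lnpk had log2 change -0.92 ± 0.22, adjusted p = 0.039, and Skap1, detected on no iHep array, was at least 5.89-fold lower. Skap1 entered the test through MEF, where it was high, so its passing is a description. None rose by limma, with 1 higher at an unadjusted p under 0.05.

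Other genes of position divided. Of 48 tested transcription factors of limb, trunk and axis, 3 rose (6.25%) and 14 fell (29.2%) in iHep against MEF, and 3 rose and 28 fell (58.3%) in hepatocytes against MEF. Zic1, a gene of the dorsal trunk, had -7.72, -8.07 and -8.09 in iHep, -7.60 in hepatocytes and -0.71, 1.30 and 1.30 in MEF. It was detected in MEF alone and was at least 81.6-fold lower in iHep. Meox2 and Pax1, genes of the somites, were likewise detected in MEF alone and fell in iHep by at least 47.9-fold and 26.8-fold. So were the hindlimb gene Tbx4 and Six2, at least 8.44-fold and 5.44-fold lower. These 5 genes entered the test through MEF, the group in which they were high, so their passing is a description. Lhx9 and Tbx2 fell but were still detected in iHep (log2 change -4.96 ± 0.69, adjusted p = 0.00947 and log2 change -2.95 ± 0.20, adjusted p = 0.00156).

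The forelimb gene Tbx5 had 0.26, -0.83 and -0.57 in iHep, -7.15 (not detected) in hepatocytes and 1.46, -0.15 and -0.16 in MEF, so the iHep and MEF ranges overlapped (log2 change -1.03 ± 0.59, adjusted p = 0.267). Pitx1, the hindlimb selector, had 2.48, 1.77 and -2.86 in iHep, -8.04 (not detected) in hepatocytes and 2.04, 1.74 and 1.68 in MEF. Type 4α3, the type lowest at Hoxc9, Hoxc10, Hoxd10 and Hoxd11, was thus also lowest at Pitx1, while types 4α1 and 4α2 lay within or above the MEF range. Hand2, which sets the posterior side of the limb bud, had -3.10, -3.47 and -4.97 in iHep, -5.91 (not detected) in hepatocytes and -3.54, -3.79 and -3.73 in MEF. Type 4α3 was lowest again, and the change did not pass (log2 change -0.20 ± 0.60, adjusted p = 0.835). Other genes of the list went the other way. Alx1 had -7.66, -7.99 and -0.92 in iHep, and Barx1 had -5.82, -8.03 and -2.57, each detected in type 4α3 alone of the types. Over all tested genes, as measured, type 4α3 lay over 2 log2 units below both other types for 1.75%, against 0.366% for type 4α1 and 0.267% for type 4α2.

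Of 10 tested signalling genes of limb and gut, 2 rose (20%) and 4 fell (40%) in iHep against MEF. Grem1, a signal of the limb bud, fell (log2 change -4.93 ± 0.42, adjusted p = 0.00267), and Fgf10, another, was detected on no iHep array and was at least 36.3-fold lower. Wnt5a (log2 change -2.51 ± 0.62, adjusted p = 0.0439) and Gdf11, a signal that times posterior Hox genes in the trunk (log2 change -2.67 ± 0.21, adjusted p = 0.00236), fell as well. Fgf10 and Gdf11 entered the test through MEF, the group in which they were high, so their passing is a description. Bmp7 and Fgf8 rose (log2 change 2.04 ± 0.31, adjusted p = 0.0119 and log2 change 1.50 ± 0.21, adjusted p = 0.0101). Fibroblast markers stood beside these falls: 10 of 10 were detected on the iHep and MEF arrays and 8 in hepatocytes, their summed linear level was 103 to 221 in iHep, 12.1 in hepatocytes and 1057 to 1070.5 in MEF. Of the 10, 7 fell in iHep against MEF, or 70%, where 13.2% of all tested genes fell. The part of this in the Hox levels was not tested.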

How the data were processed

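Total RNA of 7 samples was labelled with Cy3 and hybridised to 1-colour Agilent arrays, and per the submitters' processing notes scans were quantified in Agilent Feature Extraction 9.5.1.1. The values used were the processed intensity of each spot, deposited on a linear scale with background subtracted and not scaled between arrays, per the file headers, and 0 or 1 flags for spots well above background, saturated or outlying, a unit other than a measurement, deposited per the file headers. Mean and background intensities and the authors' deposited value table served alternatives only; its 7 columns share 1 median of 66.4, and its making is not stated in the labels or headers used.

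Control and outlier spots were dropped and spots of a probe averaged. Levels are log2(processed intensity) minus the array's 75th percentile. A gene is represented by its brightest probe and was tested where all arrays of 1 group or more flagged that probe as well above background (19133 of 27583). MEF 2 and MEF 3 differed by 0.526 to 0.878 times the spread predicted from repeated spots, against 2.72 to 4.31 times for MEF 1 with either, and were averaged. All groups entered 1 fit with lmFit and eBayes of limma 3.58.1 (R 4.3.3), Benjamini-Hochberg adjusted over all tested genes with calls at an adjusted p under 0.05, and the fit was tested on simulated data. Nothing says the samples were independent cultures beyond the MEF preparations, so p-values measure the spread between these samples. A fold against a group not above background is a lower bound, taken against the higher of the lowest detected signal of each array and the probe's own. Counts of detected genes were compared by exact permutation (scipy 1.17.1). No Hox probe was saturated.

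Members and gene lists were chosen with earlier results of these data known. Genes were named by a rule: Hox genes called in any comparison, detected in hepatocytes, or spread over more than 2 log2 units among iHep types, and of each list up to 8 genes called in iHep against MEF without overlap of arrays, plus 12 genes whatever their result. Alternatives changed the MEF samples counted, slide, background correction, scaling, filter, probe rule and arrays left out. Promoter sequences are from RefSeq, GRCm38.p6. Some genes that enter the counts are not reported singly here or drawn.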

Additional observations from a re-analysis of the deposited data

How the results depend on the processing

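No paired analysis was possible because the digits of the iHep labels name types and not preparations, and MEF 2 and MEF 3 count as 1 sample. The count of 4 Hox genes that fell in iHep against MEF became 10 with MEF 2 and MEF 3 as separate samples, 8 with slide as a random block, 2 within the slide of MEF 1 (Hoxb3 and Hoxb8) and 1 of 12 genes still tested (Hoxb7) where detection on every array was asked for; leaving out 1 sample gave 2 to 5, with 5 without MEF 1, 2 without MEF 2 and MEF 3, 2 without type 4α1, 3 without type 4α2 and 2 without type 4α3. The same strict filter tests 12 of the 32 genes: in hepatocytes against MEF it gave 8 calls, 7 of the 23 and Hoxb4, and in iHep against hepatocytes 5, all among the 19. The difference in detected genes, -3.67 between iHep and MEF, was -1.58 with the positive and significant flag (exact permutation p = 0.6). With all probes of a gene averaged, Hoxa3 had a change of -1.54 in hepatocytes against MEF, where its brighter probe had 0.17, and 1.33 in iHep against hepatocytes, where that probe had -0.12. Among uncalled genes 11 took both signs over the alternatives in iHep against MEF, 1 in hepatocytes against MEF and 5 in iHep against hepatocytes. Quantile normalisation moved the median of all genes in hepatocytes against MEF to 0.00, from 0.14 with the 75th percentile, and the Hox median to -5.00. The cause of these differences was not tested. The number of arrays limits the precision, with 1 per iHep type and 1 of hepatocytes, and signals below background carry no order.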
